A study of Homo sapiens with 6 samples.

Results

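Keratin-associated proteins are small cysteine-rich proteins of the hair shaft. They form the matrix between hair keratin filaments and are cross-linked to them by disulfide bonds late in the differentiation of the hair cortex and cuticle. Their genes have a single exon and lie in clusters, and the cluster on chromosome 17 sits among the type I keratin genes. The families KRTAP1, KRTAP2 and KRTAP3 encode high-sulfur proteins and the family KRTAP4 encodes ultrahigh-sulfur proteins.

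The genes described here are KRTAP2-3, KRTAP2-4, KRTAP4-8, KRTAP4-11, KRTAP1-5 and KRTAP3-1, and they were found by symbol in the table of normalized expression. These 6 genes take 4 of its 74852 rows, because KRTAP2-3 and KRTAP2-4 share a row and so do KRTAP4-8 and KRTAP4-11, and the values of a shared row cannot be divided between its 2 genes. They were chosen with their values in these libraries known, so that the difference between the groups is given for them as a description with no test.

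The libraries were made from MDA-MB-231, an established human line of triple-negative breast cancer with a mesenchymal phenotype. One group was transfected with a pool of non-targeting control siRNAs (si-CTRL) and the other, si-NEK2, with pooled siRNAs that target NEK2, a serine/threonine kinase of the centrosome that also acts in the nucleus. All cells received 2 rounds of transfection and were harvested 24 h after the second round according to the sample records, while the methods of the study give another time. Each group has 3 libraries of polyA RNA, and whether the 3 came from separate cultures is not stated, so that p-values measure the spread between these libraries, which may be technical. Silencing was transient and used the same pool in all 3 libraries, so that an effect of NEK2 cannot be told apart from an effect of the pool itself.

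To compare the start sites of these genes, the promoters of all 6 were looked up in RefSeq (GRCh38.p14), together with those of KRTAP4-7 and KRTAP4-9, the other keratin-associated protein genes of the cluster that passed the filter on low values. The sequence TATAAA, the core of the TATA box, was searched on the gene strand in the 100 bases before the annotated start. It was present in 6 of 6 members, as in KRTAP4-7 and KRTAP4-9, and in 3.51% of 35116 promoters. Each sequence below covers 66 bases on the gene strand, 5′ to 3′, with TATAAA in capitals. The sequences show how far genes that share a row, and the other genes listed, are alike in this window.
KRTAP2-3: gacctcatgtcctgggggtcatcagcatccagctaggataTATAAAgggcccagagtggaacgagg
KRTAP2-4: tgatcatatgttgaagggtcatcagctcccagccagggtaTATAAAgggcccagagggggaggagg
KRTAP4-8: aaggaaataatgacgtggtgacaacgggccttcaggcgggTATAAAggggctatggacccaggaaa
KRTAP4-11: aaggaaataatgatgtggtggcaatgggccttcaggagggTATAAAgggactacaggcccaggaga
KRTAP1-5: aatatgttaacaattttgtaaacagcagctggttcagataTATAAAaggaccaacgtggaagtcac
KRTAP3-1: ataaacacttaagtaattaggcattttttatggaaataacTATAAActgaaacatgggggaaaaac
KRTAP4-7: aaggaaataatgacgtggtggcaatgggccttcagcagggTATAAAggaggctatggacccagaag
KRTAP4-9: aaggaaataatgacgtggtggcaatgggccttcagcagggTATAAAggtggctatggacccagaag

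The windows lie at chr17:41060117-41060182 for KRTAP2-3, chr17:41065912-41065977 for KRTAP2-4, chr17:41098147-41098212 for KRTAP4-8, chr17:41118378-41118443 for KRTAP4-11, chr17:41027213-41027278 for KRTAP1-5 and chr17:41009192-41009257 for KRTAP3-1, all on the minus strand. Those of KRTAP4-7 at chr17:41084078-41084143 and KRTAP4-9 at chr17:41105260-41105325 are on the plus strand. TATAAA began 28 bases before the start of KRTAP2-3, 30 before those of KRTAP4-8, KRTAP4-11 and KRTAP1-5, 32 before that of KRTAP4-7, 58 before that of KRTAP2-4 and 89 before those of KRTAP3-1 and KRTAP4-9. The windows were cut around TATAAA, so that its bases match in every pair. Identity was therefore counted at the 60 positions outside it. There KRTAP4-7 and KRTAP4-9 had the same base at 59 positions, KRTAP4-8 and KRTAP4-11 at 51, and KRTAP2-3 and KRTAP2-4 at 38. KRTAP1-5 had the same base as KRTAP2-3 at 30 positions. KRTAP3-1, the member without reads, matched the other 7 windows at 13 to 17. Identity between unrelated promoters was not computed, so that low values are not read as shared sequence.

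Other motifs were searched on both strands of the 300 bases around each start. CCAAT was found in 4 of 6 members (KRTAP2-4, KRTAP4-8, KRTAP4-11 and KRTAP1-5) and in 34.6% of all promoters. CTTTGNT, the core of the TCF/LEF motif, was found in KRTAP2-3 and KRTAP1-5, that is in 2 of 6, and in 15.4% of all promoters. The letters TGANTCA (AP-1) and GGANTTTCC (NF-kB), which occurred in 7.71% and 1.64% of promoters, were in none of the 6 windows of this length. A match is a description of the letters and not evidence of binding.

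The transcripts of the members were compared to see which of them reads can distinguish, with windows of 100 bases, the read length that the methods of the study give. The methods describe single ends, whereas another passage of the study speaks of paired ends, from which more copies could be told apart. In GENCODE v29 (GRCh38) each of the 6 has a single coding exon, of 594 bases in KRTAP3-1 to 1180 in KRTAP4-11. KRTAP2-3 and KRTAP2-4 were identical at 69.8% of aligned positions, and 34.0% of the 100-base windows of KRTAP2-3 and 48.1% of those of KRTAP2-4 occurred exactly in another gene of their family. KRTAP4-8 and KRTAP4-11 were identical at 91.5%, but only 7.16% and 5.64% of their windows occurred in another gene. KRTAP1-5 and KRTAP3-1 shared no such window with another gene. The shares of KRTAP2-3 and KRTAP2-4 include windows that these genes of the same row have in common. With KRTAP2-1, which has another row, they shared 26.2% and 38.9% of their windows. How reads that match several genes were counted is not given in the sources used here. The values of the KRTAP2 row are therefore uncertain to an extent that is not known.

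The silenced gene was examined first. NEK2 (chromosome 1, 211831601 to 211848972 in hg19) had 3702, 3323 and 3290 normalized counts (reads over the size factor that DESeq2 gave each library) in the si-CTRL libraries and 284, 362 and 388 in the si-NEK2 libraries. It was thus at 10.0% of the control mean, with a log2 fold change of -3.32 (SE 0.12, adjusted p = 1.86e-06 by limma). The libraries held between 52625492 and 87454509 assigned reads, and 1 read was worth between 0.818 and 1.25 normalized counts. The si-CTRL replicate 1 library stood apart from the other 5 on the second principal component, which carried 16.2% of the variance, and calls of named genes that 1 library decides are given with the value without it. Low rows were left out, and of the 18717 that averaged 10 normalized counts or more, 2672 (14.3%) were called lower and 1541 (8.23%) higher in si-NEK2 (p of 0.05 or less, 1.5-fold or more), together 22.5%. With each library rescaled to the same total, the median log2 fold change of all rows moved from 0.01 to -0.11 and the calls to 3474 lower and 942 higher.

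The markers of the line were read from the same libraries. The mesenchymal markers VIM, CD44 and AXL summed to between 238991 and 294056 normalized counts in si-CTRL and between 206337 and 219885 in si-NEK2. CD44 was called lower (log2 fold change -0.76), a call that was lost without si-CTRL replicate 1 (-0.58). The receptor genes ESR1 and PGR and the epithelial cadherin CDH1 did not exceed 15.2 normalized counts in any library, whereas ERBB2 lay between 2455 and 4085 and was called higher only without si-CTRL replicate 1 (0.68). Of 6 keratinocyte markers, KRT1 and LOR were at 0 in all libraries and KRT5 did not exceed 3.27 normalized counts, KRT10 was not called, KRT14 was called higher and IVL, which encodes the cornified envelope protein involucrin, fell from between 54.2 and 80.0 to between 1.81 and 6.55. IVL was called lower and passed the filter through si-CTRL alone. The 6 summed to between 864 and 1259 in si-CTRL and between 1310 and 1653 in si-NEK2. Most of this sum was KRT10, with 774 to 1191 in si-CTRL and 1278 to 1602 in si-NEK2. Of 6 fibroblast markers, LUM and DCN did not exceed 2.4997 normalized counts, COL1A2 was called higher and COL1A1, PDGFRB and the row that PDGFRA shares with FIP1L1 were not called. Their sum, most of which was COL1A1, was between 150987 and 186303 in si-CTRL and between 139396 and 159008 in si-NEK2. The part of these markers in the values of the keratin-associated protein genes was not tested.

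KRTAP2-3 and KRTAP2-4 gave the highest values of the family. Their shared row (GSHG0013373, chr17:39210750-39222131 in hg19) had 859, 412 and 760 normalized counts in si-CTRL replicates 1, 2 and 3 and 52.4, 41.6 and 20.3 in si-NEK2 replicates 1, 2 and 3. Every si-NEK2 library lay below every si-CTRL library, and the lowest control exceeded the highest si-NEK2 value 7.86-fold. The mean fell from 677 ± 235 to 38.1 ± 16.3 (SD, n = 3), which left 5.63% and gave a log2 fold change of -4.15 (SE 0.37). The values rest on 1911 reads in the si-CTRL libraries (95% Poisson interval 1826 to 1999) and 129 in the si-NEK2 libraries (108 to 153), where these intervals cover counting error only. In RNA of a whole culture, fewer cells with a transcript and less of it per cell cannot be told apart.

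The row of the ultrahigh-sulfur members KRTAP4-8 and KRTAP4-11 (GSHG0132596, chr17:39253233-39274612) was also lower in si-NEK2. It had 180, 90.1 and 127 normalized counts in si-CTRL replicates 1, 2 and 3 and 6.55, 9.94 and 10.7 in si-NEK2 replicates 1, 2 and 3. The mean fell from 132 ± 45.2 to 9.05 ± 2.20 (SD, n = 3), leaving 6.83%, with a log2 fold change of -3.70 (SE 0.31). The groups did not overlap, and the lowest control was 8.44-fold above the highest si-NEK2 value. This row passed the filter on low values through the si-CTRL libraries, as its si-NEK2 mean alone is under the minimum. It rests on 371 and 29 reads.

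KRTAP1-5, a high-sulfur member with a row of its own (GSHG0013370, chr17:39182281-39183480), had 147, 111 and 190 normalized counts in si-CTRL replicates 1, 2 and 3 and 11.5, 12.7 and 12.8 in si-NEK2 replicates 1, 2 and 3. The groups were separated by a factor of 8.70 between the lowest control and the highest si-NEK2 library. The mean fell from 150 ± 39.4 to 12.3 ± 0.74 (SD, n = 3), leaving 8.22%, with a log2 fold change of -3.47 (SE 0.24). The 433 reads of the controls and 40 of the si-NEK2 libraries come from a transcript that shares no 100-base window with another gene.

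KRTAP3-1, the last member (GSHG0013369, chr17:39164776-39165366), had no read in any of the 6 libraries. A count of 0 allows up to 3 reads per library, or at most 2.46 to 3.75 normalized counts, and no fold change can be given.

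**Figure D1:**
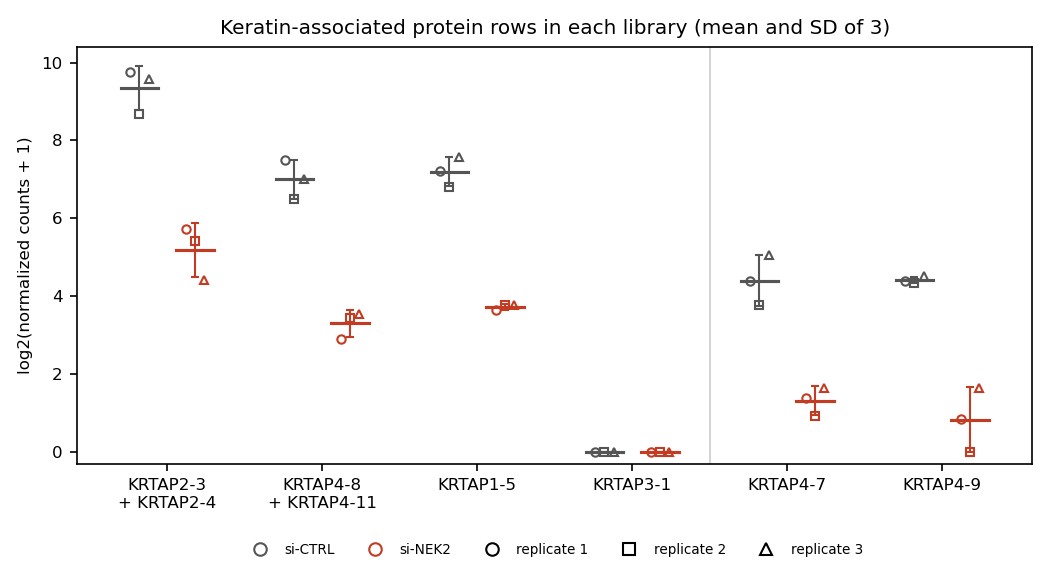
Values of the 4 member rows and, to the right of the line, of KRTAP4-7 and KRTAP4-9 in each library, as log2(normalized counts + 1); symbols mark the replicate, grey is si-CTRL, red is si-NEK2, and bars give mean and SD of 3 libraries. All si-NEK2 points lie below all si-CTRL points in the 5 rows with reads, as in 26.9% of all rows tested. The members were chosen on this contrast. KRTAP4-7, KRTAP4-9 and 1 member row passed the filter through si-CTRL alone, so that nothing is read from the count. KRTAP3-1 is at 0 in all 6 libraries.

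Thus 3 of the 4 member rows had reads, and in 3 of 3 the groups did not overlap and si-NEK2 was lower, as in 26.9% of all rows tested. They were chosen on this contrast, and nothing is read from that count. Among 18717 rows ordered from the lowest log2 fold change, the KRTAP2 row stood at place 6, the KRTAP4-8 and KRTAP4-11 row at place 13 and KRTAP1-5 at place 18. Their median log2 fold change was -3.70, while that of all rows tested was 0.01. Over the libraries left out in turn, the log2 fold change ranged from -4.47 to -3.76 for the KRTAP2 row, from -3.95 to -3.45 for the KRTAP4-8 and KRTAP4-11 row and from -3.66 to -3.28 for KRTAP1-5. Without si-CTRL replicate 1, the library that stood apart, the values were -3.94, -3.45 and -3.46.

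**Figure D2:**
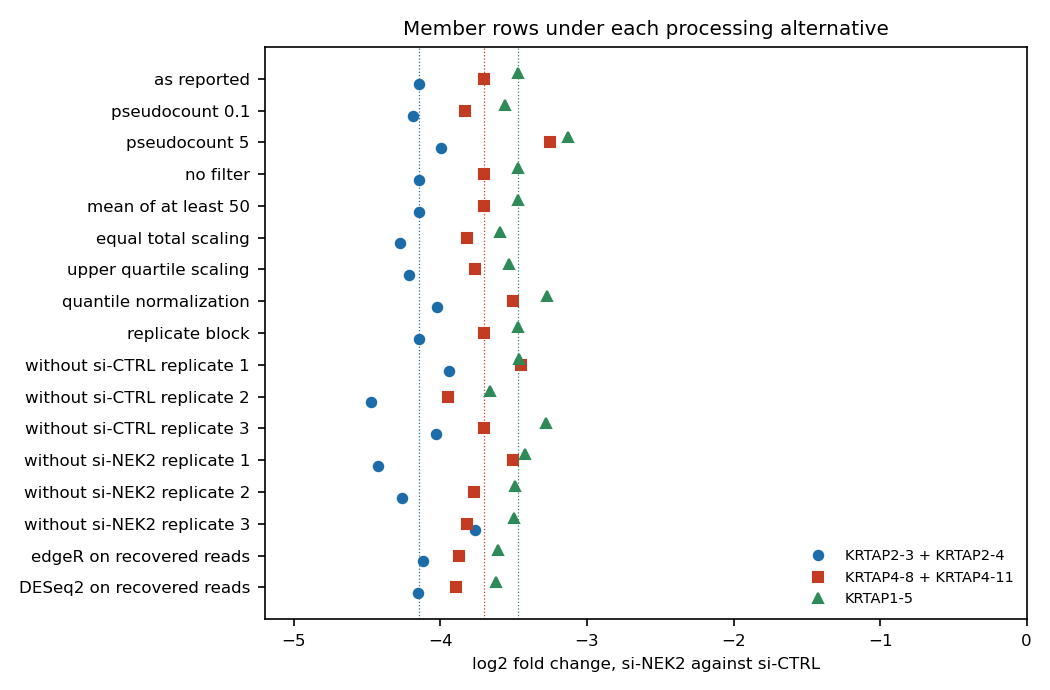
Log2 fold change of the 3 member rows with reads, si-NEK2 against si-CTRL, under each way of processing the values (vertical axis); dotted lines mark the reported values of -4.15, -3.70 and -3.47. All points lie between -4.47 and -3.13.

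Within the si-CTRL group the 3 rows had the same lowest library. Replicate 2 was the lowest control in 3 of 3 rows, and the highest control exceeded it 2.09-fold in the KRTAP2 row, 2.00-fold in the KRTAP4-8 and KRTAP4-11 row and 1.71-fold in KRTAP1-5. It also had the lowest control score on the first principal component of all tested rows (34.4 against 54.0 and 40.8, 61.7% of the variance). The share of all rows with replicate 2 lowest was not counted, so that this order is not read as particular to the members. Within si-NEK2 the lowest library was replicate 3 for the KRTAP2 row and replicate 1 for the other rows. The spread there was 2.58-fold for the KRTAP2 row, 1.63-fold for the KRTAP4-8 and KRTAP4-11 row and 1.12-fold for KRTAP1-5.

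The proportions of the members to each other were compared within libraries, where size factors cancel. KRTAP1-5 had 0.172, 0.271 and 0.250 reads per read of the KRTAP2 row in si-CTRL replicates 1, 2 and 3 and 0.219, 0.304 and 0.632 in si-NEK2 replicates 1, 2 and 3, and the groups overlap. The ratio of the KRTAP2 row to the KRTAP4-8 and KRTAP4-11 row was 5.10 ± 0.75 in si-CTRL and 4.69 ± 3.08 in si-NEK2 (SD, n = 3), where the spread among si-NEK2 libraries, from 1.90 to 8, covers all 3 controls. KRTAP1-5 over the KRTAP4-8 and KRTAP4-11 row gave 1.18 ± 0.34 and 1.41 ± 0.30. A change in the proportions of the 3 rows was thus not detectable beyond the spread between libraries.

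Per kb of transcript (GENCODE v29, the mean length of the 2 genes for a shared row, whose value is then the sum of both), the levels ran from the KRTAP2 row with 826 ± 286 normalized counts per kb in si-CTRL to KRTAP1-5 with 127 ± 33.5 and the KRTAP4-8 and KRTAP4-11 row with 113 ± 38.6. The latter rows differed by less than their SD. In si-NEK2 the levels were 46.5 ± 19.9, 10.5 ± 0.63 and 7.73 ± 1.88 normalized counts per kb, in the same order. On the same scale the hair keratin KRT34, at 112 ± 8.57 in si-CTRL, differed from KRTAP1-5 and from the KRTAP4-8 and KRTAP4-11 row by less than the SD of those rows, whereas KRT32 (25.7 ± 2.98) and KRT33B (21.2 ± 3.22) were lower. In si-NEK2, KRT34 was at 39.4 ± 8.02 per kb, above KRTAP1-5.

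The rest of the family was then counted. Besides the members, 85 rows carry a KRTAP gene and 1 carries the antisense RNA KRTAP5-AS1. Of these 86, 70 were at 0 in all libraries, 13 had reads but did not pass the filter, and 3 were tested. The chromosome 17 cluster holds 25 of the other rows, of which 17 were at 0, while 8 of 11 rows on chromosome 11 and 45 of 49 on chromosome 21 were at 0. The member rows took 93.4% to 95.8% of all KRTAP normalized counts in si-CTRL and 69.5% to 83.5% in si-NEK2, where the whole family summed to 84.3, 78.6 and 62.9 normalized counts against 1239, 657 and 1147 in si-CTRL.

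KRTAP4-7 and KRTAP4-9, ultrahigh-sulfur genes on the opposite strand of the same cluster, were both called lower, as were 14.3% of all rows tested. KRTAP4-7 (GSHG0038918, chr17:39240459-39241396) had 19.997, 12.6 and 32.3 normalized counts in si-CTRL and 1.64, 0.90 and 2.13 in si-NEK2, with a log2 fold change of -3.08 (SE 0.50, adjusted p = 0.00129 by limma). KRTAP4-9 (GSHG0012485, chr17:39261641-39262740) had 19.997, 19.4 and 21.9 normalized counts in si-CTRL and 0.82, 0 and 2.13 in si-NEK2, with a log2 fold change of -3.58 (SE 0.54, adjusted p = 0.000931 by limma). Groups did not overlap in either gene, while 26.9% of all rows tested were lower without overlap. Both passed the filter through si-CTRL alone, so that nothing further is read from the 2 calls. They stand on few reads, 63 against 5 for KRTAP4-7 and 59 against 3 for KRTAP4-9. The ratio of the depth-corrected reads was 14.3 (95% exact binomial interval 5.80 to 45.4) and 22.3 (7.26 to 111). With pseudocounts of 5 and 0.1 in place of 1, the log2 fold change was -1.96 and -3.68 for KRTAP4-7 and -2.10 and -5.12 for KRTAP4-9. KRTAP4-9 lies within the span of the KRTAP4-8 and KRTAP4-11 row on the opposite strand, and since the strand setting of the counting is not given in the sources used here, their reads may not be fully separate.

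KRTAP5-AS1, antisense to the KRTAP5 genes of chromosome 11, had 36.2, 29.1 and 19.96 normalized counts in si-CTRL and 18.8, 19.0 and 17.1 in si-NEK2, and was not called (log2 fold change -0.57, SE 0.29, adjusted p = 0.148 by limma). It was called lower without si-CTRL replicate 3 (-0.80) and with the libraries rescaled to the same total (-0.69). The 6 other rows of the chromosome 17 cluster that had reads below the filter summed to 3, 7 and 13 reads in si-CTRL and 2, 0 and 2 in si-NEK2. Those on chromosome 21 summed to 5, 5 and 4 reads in si-CTRL and 12, 8 and 6 in si-NEK2. These sums are too small for a statement on single genes.

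Hair keratins form the filaments that keratin-associated proteins bind, and their 17 genes were examined next. Of them, 5 were at 0, 7 did not pass the filter and 5 were tested. Of the 5, the type I genes KRT33B, KRT34 and KRT32 were called lower and the type II genes KRT81 and KRT86 higher (14.3% and 8.23% of all rows). KRT33B and KRT32 were tested only because of their si-CTRL values, so that no shift of the list is read from these calls. With a filter at a mean of at least 50 normalized counts, 2 hair keratins were called higher and 1 lower. KRT34 had 195, 182 and 212 normalized counts in si-CTRL and 68.7, 55.1 and 83.2 in si-NEK2, with a log2 fold change of -1.51 (SE 0.18, adjusted p = 0.000252 by limma). KRT33B went from 35.0, 38.7 and 28.5 to 4.91, 4.52 and 11.7 (-2.22, SE 0.39, adjusted p = 0.00211 by limma). KRT32 went from 39.99, 44.6 and 50.4 to 15.5, 3.61 and 6.40 (-2.47, SE 0.45, adjusted p = 0.00246 by limma). KRT33B and KRT32 passed the filter through si-CTRL alone. In all 3 of these type I genes the groups did not overlap, while 26.9% of all rows tested were lower without overlap. Each fell less than any member row with reads on the log2 scale, a difference that was not tested.

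KRT81 had 357, 485 and 441 normalized counts in si-CTRL and 872, 766 and 530 in si-NEK2, with a log2 fold change of 0.74 (SE 0.19, adjusted p = 0.0125 by limma). KRT86 had 36.2, 63.9 and 61.8 in si-CTRL and 92.5, 87.7 and 71.5 in si-NEK2, with 0.66 (SE 0.25, adjusted p = 0.0580 by limma). The KRT86 call was lost without si-CTRL replicate 1 (0.40), si-NEK2 replicate 1 (0.59) or si-NEK2 replicate 2 (0.63), and with libraries rescaled to the same total (0.54). KRT81 and KRT86 lie at the same locus on chromosome 12 and are similar in sequence, so that they may share reads. The type I genes KRT31, KRT33A, KRT36, KRT37 and KRT39 and the type II genes KRT83 and KRT85 did not exceed 5.42 normalized counts in any library.

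Genes of hair shaft assembly were counted in the same way. Of 8 listed genes, 3 did not pass the filter, and of the 5 tested TCHH was called lower (14.3% of all rows were) and 4 were not called. TCHH, which encodes trichohyalin of the inner root sheath, had 124, 107 and 114 normalized counts in si-CTRL and 22.9, 27.1 and 38.4 in si-NEK2. Its log2 fold change was -1.95 (SE 0.22, adjusted p = 0.000221 by limma). The groups did not overlap, while 26.9% of all rows tested were lower without overlap. PADI3, the peptidylarginine deiminase that modifies trichohyalin, had 249 ± 34.3 and 172 ± 8.42 (SD, n = 3). Its log2 fold change of -0.53 did not reach the fold threshold (adjusted p = 0.0128 by limma), but it was called lower without si-CTRL replicate 1 (-0.64) and with the libraries rescaled to the same total (-0.66) or to the upper quartile, so that the list then held 2 lower calls. PADI1, TGM1 and S100A3 had log2 fold changes between 0.03 and 0.28. The median of the list was 0.03.

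Regulators of hair differentiation were called in both directions. Of 13 listed genes, 11 were tested, 4 were called higher, 2 lower and 5 were not called, with a median log2 fold change of 0.09, where 8.23% of all rows were called higher and 14.3% lower. HOXC13, a homeobox factor known to act on hair keratin and KRTAP genes, had 652, 743 and 784 normalized counts in si-CTRL and 1266, 1206 and 1293 in si-NEK2, with a log2 fold change of 0.79 (SE 0.09, adjusted p = 0.000243 by limma). It was thus higher in si-NEK2 with no overlap between the groups, and the share of all rows higher without overlap was not computed. The homeobox gene MSX2 (0.89, SE 0.11), the ligand BMP4 (0.95, SE 0.13) and its receptor BMPR1A (0.67, SE 0.06) were also called higher, and the call of BMPR1A was lost with the libraries rescaled to the same total (0.54). LEF1, the nuclear partner of beta-catenin, was called lower, from 591 ± 151 to 297 ± 3.60 normalized counts (SD, n = 3) with a log2 fold change of -0.96 (SE 0.16, adjusted p = 0.00163 by limma). VDR, the vitamin D receptor, was also called lower, from 654 ± 53.9 to 324 ± 36.1 (-1.01, SE 0.11, adjusted p = 0.000217 by limma). FOXN1 was at 0 in all libraries and DLX3 did not pass the filter, while GATA3, FOXQ1, TCF7L1, SOX9 and MSX1 were not called.

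**Figure D3:**
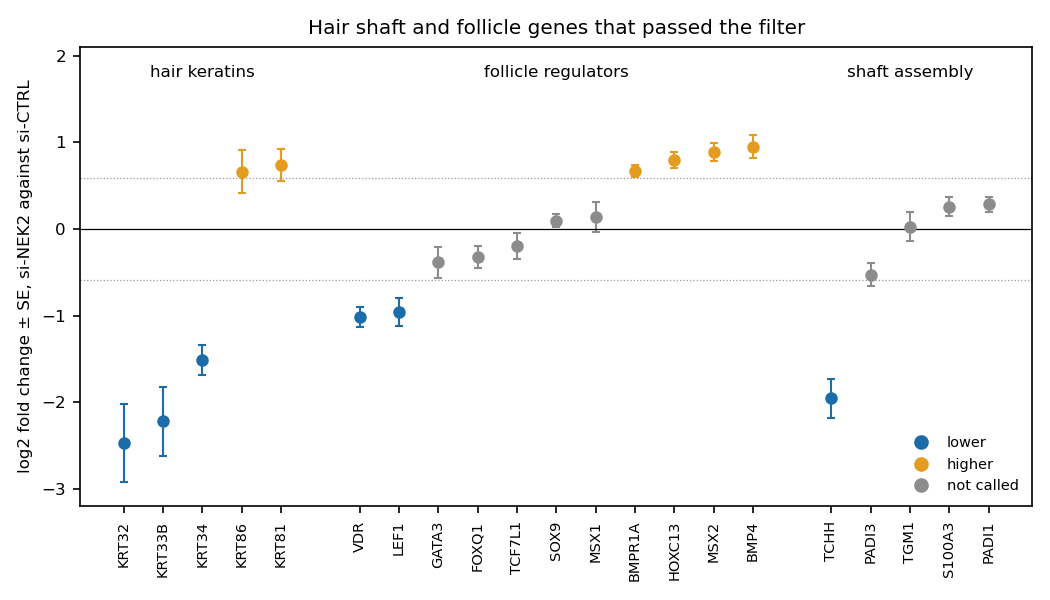
Log2 fold change of the tested hair keratins, hair follicle regulators and hair shaft assembly genes, si-NEK2 against si-CTRL, with SE from limma; colours mark the call and dotted lines the fold change of 1.5. Of these, 3 of 5 hair keratins, 2 of 11 regulators and 1 of 5 assembly genes were called lower, as were 14.3% of all rows. In the other direction, 2 hair keratins and 4 regulators were called higher, as were 8.23%. KRT33B and KRT32 passed the filter through si-CTRL alone.

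The surroundings of the members on chromosome 17 were read from the coordinates of the file (hg19). Within 500 kb of a member row lie 78 other rows, of which 38 were at 0, 26 did not pass the filter and 14 were tested. Of the 14, 6 were called lower and 2 higher (14.3% and 8.23% of all rows tested). The 6 were KRTAP4-7, KRTAP4-9, KRT33B, KRT34 and KRT32, described above, and the row of KRT15 and MIR6510. KRTAP4-7, KRTAP4-9, KRT33B and KRT32 passed the filter through si-CTRL alone, so that no shift of the region is read from these counts. Only 5 of the tested rows lie within 250 kb, of which KRTAP4-7, KRTAP4-9 and KRT33B were called lower. All 3 are rows that passed through si-CTRL alone.

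On the lower side the nearest tested row was TMEM99, 172 kb from KRTAP3-1, with 700, 1101 and 1035 normalized counts in si-CTRL and 1140, 1155 and 1134 in si-NEK2, and it was not called (log2 fold change 0.30, SE 0.16). TMEM99 overlaps KRT10, a keratin of the differentiated epidermis, which was not called either (0.50, SE 0.17). KRT10 was called higher when si-NEK2 replicate 3 (0.59) or either of the si-CTRL replicates 2 (0.60) and 3 (0.60) was left out. On the upper side the nearest was KRT33B, 245 kb away. The row of KRT15, a keratin of basal cells, and MIR6510, 395 kb away, had 684, 446 and 594 normalized counts in si-CTRL and 348, 347 and 421 in si-NEK2 (-0.61, SE 0.16, adjusted p = 0.0146 by limma). Its call was lost without si-CTRL replicate 1 (-0.47), si-CTRL replicate 3 (-0.58), si-NEK2 replicate 1 (-0.56) or si-NEK2 replicate 2 (-0.56), and with quantile normalization (-0.47).

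Farther along, KRT14 and KRT16 were called higher. KRT14, the type I keratin of basal keratinocytes, had 10.0, 13.6 and 13.3 normalized counts in si-CTRL and 40.9, 45.2 and 29.9 in si-NEK2 (log2 fold change 1.57, SE 0.28, adjusted p = 0.00237 by limma). KRT16, a keratin of wounded epidermis, had 26.2, 23.2 and 19.96 in si-CTRL and 73.7, 46.1 and 49.1 in si-NEK2 (1.22, SE 0.25, adjusted p = 0.00479 by limma). In both the groups did not overlap, and the share of all rows higher without overlap was not computed. Both lie within the span that the file gives to KRT19, which stood just under the fold threshold (0.55, SE 0.08, adjusted p = 0.000878 by limma). KRT19 was called higher without si-CTRL replicate 1 (0.59) or si-NEK2 replicate 3 (0.60). Expressed keratin genes of the same region thus changed in both directions, and no order by distance is read from them, since the calls of KRT10, KRT19 and the KRT15 row, at 186, 405 and 395 kb from a member, each depend on single libraries. Without si-NEK2 replicate 3, 4 of the 14 were called higher in place of 2.

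**Figure D4:**
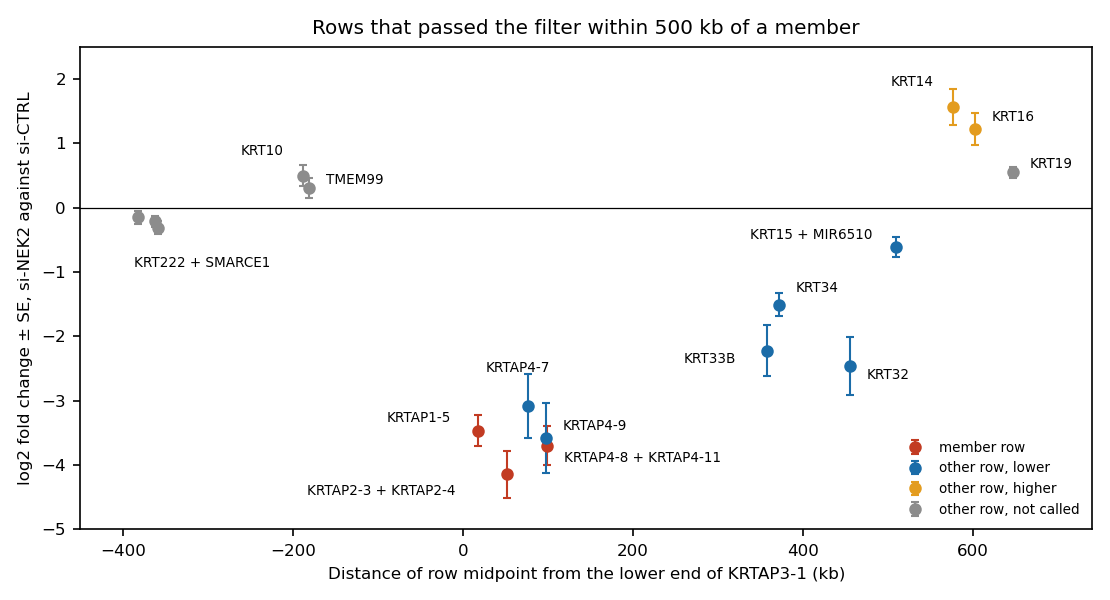
Log2 fold change with SE of the member rows with reads and of the 14 other tested rows within 500 kb of a member, against the distance of the row midpoint from the lower end of KRTAP3-1 in kb (hg19); colours mark members and calls. Member rows and KRTAP4-7 and KRTAP4-9 lie between 18.1 and 99.1 kb with values from -4.15 to -3.08, and KRT14 and KRT16 at 576 and 603 kb are above 0.

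The genes whose profile over the 6 libraries was most like the mean profile of the 3 member rows were taken from 12913 other rows that carry a symbol and average 50 normalized counts or more. Likeness was the root mean square difference between centred log2(normalized counts + 1) profiles, on which the member rows themselves stood at 0.24 (KRTAP1-5), 0.26 (KRTAP4-8 and KRTAP4-11) and 0.39 (the KRTAP2 row). The nearest were ESM1 (0.225), which encodes the secreted proteoglycan endocan, the cytokine genes IL1B (0.237), IL1A (0.304) and IL24 (0.304), and BCL2A1 (0.252), a member of the BCL2 family. ESM1 had 19467, 17217 and 23825 normalized counts in si-CTRL and 1359, 1460 and 1548 in si-NEK2, a log2 fold change of -3.78 (SE 0.11). IL1B had 3773, 3031 and 3413 in si-CTRL and 272, 300 and 303 in si-NEK2, with -3.54 (SE 0.10). BCL2A1 went from 1203 ± 324 to 60.3 ± 5.71 normalized counts (SD, n = 3), with -4.26 (SE 0.20). Replicate 2 was the lowest control in all 5 of these genes, as in the member rows. IL1A and IL24 had log2 fold changes of -3.25 (SE 0.15) and -3.91 (SE 0.29). These genes were picked for the likeness on the same libraries, on which all of them differ between the groups, and the list is a description.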

How the data were processed

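PolyA RNA of MDA-MB-231 cells was sequenced in 3 si-CTRL and 3 si-NEK2 libraries, grouped by the sample records. The authors deposited 1 signal for each gene in each library, reads scaled by a DESeq2 size factor, without pooling replicates; genes are those of FAST DB v2016_1 on hg19. The submitters' processing notes name STAR 2.4.0, Picard, SAMtools and FastQC. The counting program, its strand setting (the kit was stranded) and the treatment of multiply mapped reads are not given in the sources used here. All deposited values were whole multiples of 1 read (100%, tolerance 0.01 reads), so that the reads were recovered. Of 74852 rows, 51665 carry no symbol.

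The 18717 rows averaging 10 normalized counts or more were fitted with limma 3.58.1 in R 4.3.3 (lmFit, eBayes with an intensity trend) on log2(value + 1) of the deposited signal, a scale on which the fold change of low genes is understated. The study's thresholds (p of 0.05 or less, 1.5-fold or more) set the calls, and p-values were adjusted by the Benjamini-Hochberg procedure. The scripts were tested on simulated data with the same dispersion for all genes and no outlying library. That test does not cover the spread between the libraries used here.

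The members and the lists were chosen with earlier results of these data known. The text names NEK2, the member rows, the tested rows of other KRTAP genes and hair keratins, the called genes of the other lists, the nearest tested neighbour on each side and the 5 genes with the most similar profile. PADI3, KRT10, KRT19, the markers and the other genes of the lists that were not called were named after their values were seen. All 6 members were matched by symbol to the RefSeq promoters (GRCh38.p14) and to GENCODE v29, and no coordinates were converted between builds. Other settings tried were no filter, a filter at 50, pseudocounts of 0.1 and 5, 3 other scalings, eBayes without a trend, a replicate block, each library left out, the recovered reads in edgeR 4.0.16 and in DESeq2 1.42.0, calls on adjusted p, calls from 2-fold and neighbours within 250 kb.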

Additional observations from a re-analysis of the deposited data

How the results depend on the processing

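No member row and no called gene named in the text changed direction under the alternatives run. The log2 fold changes of KRTAP1-5 and of the KRTAP4-8 and KRTAP4-11 row moved by more than 1 SD between libraries with a pseudocount of 5 only, to -3.13 and -3.25, as a larger pseudocount shrinks low values. Of all rows, 1637 were called at a fold change of at least 2, in place of 4213; edgeR called 4205 and DESeq2 4039 on the recovered reads, and the range without each library was 3913 to 4436. Without a filter, 5 other KRTAP rows were called (4 lower, 1 higher), and with a mean of at least 50 there were 0, since none of the 3 was then tested, and the range without each library was 2 to 3. Called hair keratins were 3 with a mean of at least 50 (2 higher, 1 lower) and 3 at a fold change of at least 2 (0 higher, 3 lower). Their range without each library was 4 to 5, and called regulators were 1 at a fold change of at least 2. Called assembly genes were 2 with equal totals and 2 with upper quartile scaling, with a range of 1 to 2 without each library. Called neighbours were 2 with a mean of at least 50 and 3 within 250 kb, with a range of 7 to 10 without each library.

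Replicate numbers are shared by the groups, but same-numbered libraries did not deviate together (correlations of -0.09, 0.05 and -0.15 over 18717 genes), so that the numbers were not taken as a pairing. With the replicate number as a block 4084 rows were called, the log2 fold changes of the member rows stayed at -4.15, -3.70 and -3.47, and the counts of called rows in the lists were 2, 5, 6, 1 and 8, as without it. Depth limits most the rows KRTAP4-7 and KRTAP4-9, with 5 and 3 reads in the 3 si-NEK2 libraries together.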
